A study of Mus musculus with 12 samples.

Results

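The wild type hearts of a transgenic mouse study, its controls, were compared with each other. The questions were which transcripts were brightest in the normal heart at 3 weeks, which differed most from heart to heart, and which differed between controls of the mild and of the severe line. All 6 wild type arrays of the 12 in the series were members, and none was left out. They were chosen by the genotype in the labels. Each array held total RNA of the whole heart of 1 female FVB/N mouse of age 3 weeks on the Illumina MouseWG-6 v2.0 platform. Of the hearts, 3 came from wild type littermates of MHC-CELFΔ-574, the mild line, and 3 from wild type littermates of MHC-CELFΔ-10, the severe line. They are called mild littermates 1 to 3 and severe littermates 1 to 3 here, after the replicate numbers in the labels, but none of them carried the transgene. The transgenic hearts, 3 arrays a line, made a dominant negative CELF protein in the nuclei of heart muscle cells under the promoter of α-myosin heavy chain. The labels do not say whether the 3 hearts of a group came from 1 litter, so line, parents, litter and any day of collection or array batch cannot be told apart, and p-values measure the spread between these 6 animals and the 6 transgenic ones. The raw files of 3 arrays (severe littermate 3 and 2 transgenic hearts of the severe line) have another order of probes and 2 lines each without a probe ID, so they stand apart in how they were exported.

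A heart at weaning beats without pause and burns mainly fatty acids, so transcripts of the contractile apparatus and of mitochondria are known to dominate its RNA. Whole heart RNA also carries the transcripts of vessels, connective tissue, blood that remains in the chambers and fragments of neighboring tissue. Some transcripts change within hours with feeding, stress hormones and the time of day, the circadian clock genes among them, and such genes are known to differ between animals that were handled alike.

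Signals are log2 values of the authors' quantile normalized table, so 1 unit is a 2-fold difference. A feature is a row of that table in which probe IDs with identical values on every array count once. There were 30854 features, and 22203 carry 1 gene symbol. Signals of all arrays share 1 distribution, with a median of 6.58 over merged features, so only changes relative to the other transcripts can be seen. The raw medians ran from 106 to 117 in the 6 hearts. The labels' sex and tissue were checked first. Xist, which is made from the inactive X chromosome of females, had a log2 signal of 8.79 to 9.56, and the Y-linked genes Eif2s3y, Kdm5d, Usp9y and Uty ran from 6.34 to 6.61. All 16 measured atrial markers and 10 of 11 ventricular markers were above the median of the mean signals, 6.56. The atrial list's summed linear signal was 62347 to 64755 in the mild littermates and 60776 to 66929 in the severe littermates, and the ventricular list's 69589 to 72854 and 69459 to 73290.

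Stretches of 120 bases of promoter are shown for members of 4 gene groups that varied between these hearts. H2ac15, H2ac12 and H2ac22 encode histone H2A and stand for the most variable of the core histone families. CCAAT, the box bound by the factor NF-Y, is in capitals on either strand (ATTGG on the reverse). All 9 of the variable H2A genes held it, against 37.4% of all 32851 promoter windows of 300 bases, and 5 of the 9 held TATAAA, against 13.6%. The 9 were chosen by their SD, and steadier H2A and H2B genes were not counted, so these shares say nothing of the spread. Alas2, the first enzyme of heme synthesis in red cells, is shown with AGATAA in capitals, here as TTATCT on the reverse strand. It is a match to the letters read by GATA factors. That match occurs in 11.2% of windows and in 3 of the 9 red cell genes with a window. Ciart, a repressor of the clock, is shown with CACGTG, the E-box that CLOCK and BMAL1 read, which was found in 7.15% of windows and in 5 of the 16 clock genes with a window. Sgk1, a kinase induced by glucocorticoids, is shown with a full palindrome of the glucocorticoid receptor's site, AGAACA and TGTTCT with any 3 bases between. These letters were in 1 of 6 Sgk1 windows and in 0.00913% of all windows. Of the 16 glucocorticoid response genes with a window, only Sgk1 held them. Both strands were searched, and the motifs do not overlap in these stretches. The sequences are from RefSeq, build GRCm38.p6, and run 5′ to 3′ on the strand of the gene. They end 1 base before an annotated start, or, for Sgk1, 131 bases before it. A match describes the letters and is no sign of binding.
H2ac15 (chr13:21753913-21754032, minus strand): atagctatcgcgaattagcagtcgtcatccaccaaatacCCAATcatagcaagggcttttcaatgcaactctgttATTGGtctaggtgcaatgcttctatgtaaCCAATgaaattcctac
H2ac12 (chr13:22035644-22035763, minus strand): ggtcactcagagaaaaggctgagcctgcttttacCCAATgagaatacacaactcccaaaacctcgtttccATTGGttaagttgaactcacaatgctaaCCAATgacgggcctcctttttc
H2ac22 (chr13:21787249-21787368, minus strand): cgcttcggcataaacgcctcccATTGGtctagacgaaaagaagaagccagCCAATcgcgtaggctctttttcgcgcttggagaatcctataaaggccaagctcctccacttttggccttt
Alas2 (chrX:150547297-150547416, plus strand): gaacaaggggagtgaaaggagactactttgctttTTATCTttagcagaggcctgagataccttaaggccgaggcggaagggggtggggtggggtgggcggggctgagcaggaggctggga
Ciart (chr3:95882229-95882348, minus strand): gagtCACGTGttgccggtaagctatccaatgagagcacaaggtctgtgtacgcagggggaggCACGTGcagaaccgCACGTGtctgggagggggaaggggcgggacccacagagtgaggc
Sgk1 (chr10:21993640-21993759, plus strand): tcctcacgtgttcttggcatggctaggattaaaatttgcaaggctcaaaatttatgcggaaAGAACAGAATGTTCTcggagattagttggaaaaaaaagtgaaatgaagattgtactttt

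The brightest named transcripts of the wild type heart were those of contraction and of the mitochondrion. Tnnc1, the calcium sensor of the thin filament, led with a mean log2 signal of 15.07 (SD 0.032, n = 6 hearts), followed by Atp5g3, a ring subunit of ATP synthase, at 14.98 and Nppa, the atrial natriuretic peptide, at 14.92. Of the 25 brightest symbols 7 were on the oxidative phosphorylation list, which includes Atp5b, Cox6a2, Cox7a1 and Cox4i1. The list does not hold every respiratory chain and ATP synthase gene, so 7 is a lower bound for such genes. The essential and regulatory light chains Myl3 and Myl2, the calcium pump Atp2a2, the fatty acid carrier Fabp3 and the oxygen store Mb stood beside them. So did Hba-a1, an α-globin, which marks red blood cells in the tissue. A probe's brightness also depends on its sequence, so these ranks describe features and are no measure of molecules, and 34 of the brightest 100 features have no symbol here.

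These transcripts spread about as much as other features. Their SD over the 6 hearts ran from 0.032 to 0.20 with a median of 0.098, against 0.097 over all features above the median signal, and none of the 25 fell below rank 42 on any array. Nppa lay at 14.87, 14.89 and 14.95 in the mild littermates and at 14.98, 14.89 and 14.92 in the severe littermates, which overlap. Atp2a2 lay at 14.57, 14.59 and 14.60 against 14.66, 14.49 and 14.57. Several hearts share a value exactly, such as 15.06 for Tnnc1 in 4 of them, because quantile normalization gives the same rank the same value.

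Chchd10, a protein of the mitochondrial intermembrane space, had the largest SD of the 25, 0.20. Its signal was 14.63, 14.40 and 14.51 in the mild littermates and 14.15, 14.17 and 14.18 in the severe littermates, without overlap, and the difference of 0.34 did not pass the test (limma, adjusted p = 0.153). ND4, a mitochondrially encoded subunit of complex I, was at 15.02 in all 3 mild littermates and at 14.89, 14.81 and 14.66 in the severe littermates (difference 0.24, adjusted p = 0.190).

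**Figure D1:**
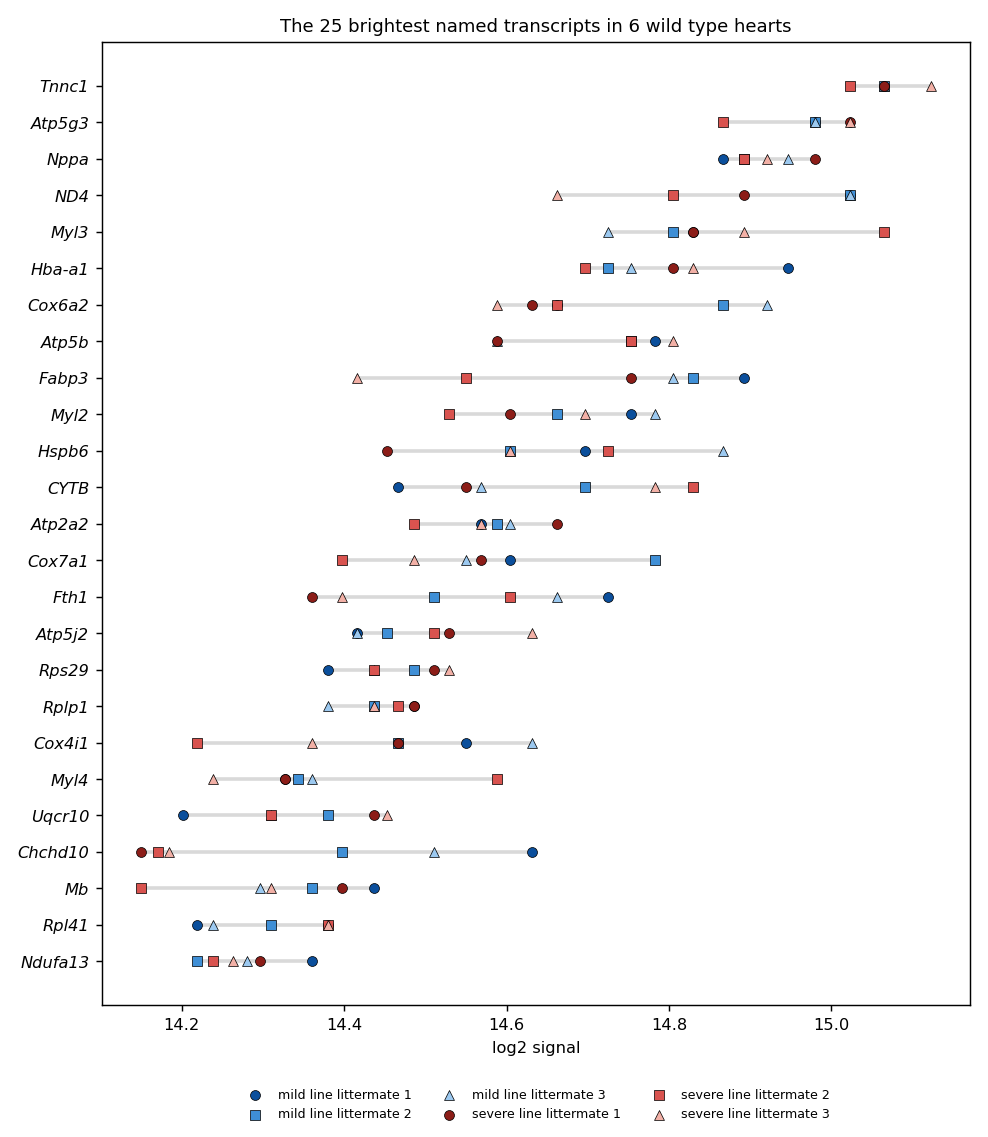
Log2 signal of the 25 brightest named transcripts (rows, brightest first) in the 6 wild type hearts, 1 symbol per heart and a grey line from the lowest to the highest. The SDs over the hearts run from 0.032 to 0.20.

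By gene group, 34 of 48 measured oxidative phosphorylation genes were in the brightest 1% of features, with a median log2 signal of 12.90. So were 10 of 19 sarcomere genes (median 12.45), 8 of 21 genes of fatty acid uptake and oxidation (median 11.63), 7 of 15 genes of glycolysis (median 11.13) and 11 of 27 ribosomal protein and translation factor genes (median 11.92). Calcium handling genes had 3 of 15 in that range. Myh6, the α-myosin heavy chain whose promoter drives the transgene in the transgenic hearts, lay between 13.81 and 13.88 in all 6 hearts, while Myh7, the β chain of the fetal heart, lay between 6.64 and 6.85, near the median of all features.

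Most transcripts differed little from heart to heart. Over the 15427 features above the median signal, the SD over 6 hearts had a median of 0.097 and a 95th percentile of 0.21. The highest heart was under 1.2-fold above the lowest for 51.7% of these features and under 1.5-fold for 95.6%. A range of 2-fold or more was found for 69 features, 0.447%, of which 50 have 1 symbol, and one of 4-fold or more for 5. Without mild littermate 1 the count was 44. The median absolute difference between a pair of hearts was 0.077 to 0.086 among mild littermates, 0.098 to 0.11 among severe littermates and 0.095 to 0.11 between the groups, so hearts of different lines were about as far apart as hearts of the severe line from each other. Within groups the median SD was 0.071 for the mild and 0.092 for the severe littermates, and the latter was the larger for 62.7% of features. Features were counted by heart where they lay over 1 log2 unit from the median of the other 5 hearts. They numbered 6, 11 and 11 in mild littermates 1 to 3 and 3, 6 and 3 in severe littermates 1 to 3. Slc4a1, H2ac12 and H2ac15 were counted in both mild littermates 2 and 3. At a limit of 0.5, chosen after seeing the data, the counts were 86, 58 and 99 against 95, 186 and 74. Severe littermate 2 then had the most and mild littermate 2 the fewest, so the order of the hearts depended on the limit.

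At the steady end, the 10 lowest SDs of named transcripts in the brightest 10% of features ran from 0.022 to 0.030. These were Smarca2, an ATPase of the SWI/SNF chromatin remodeler, Gucd1, Upf2 of nonsense-mediated decay, the lipid peroxide reductase Gpx4, Raly, Tmem126a of complex I assembly, the lipid kinase Pi4ka, the glycolytic enzyme Tpi1, Elp5 and Coq9 of ubiquinone synthesis. Gpx4 lay at 11.77, 11.77 and 11.71 in the mild and 11.72 in each of the severe littermates. Tpi1 lay at 12.21, 12.24 and 12.21 against 12.27, 12.24 and 12.28.

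Genes often used to scale other measurements were not equally steady. Pgk1 had an SD of 0.048 and Ywhaz of 0.068, below the median of all features, and Gapdh one of 0.099. Ppia reached 0.19, Actb 0.23 and B2m, the light chain of class I antigen presentation, 0.33. Actb lay at 10.78, 11.23 and 11.41 in the mild littermates and at 10.94, 11.04 and 11.28 in the severe littermates. Of 12 such genes above the median signal 3 had an SD over the 95th percentile (5% of features do), and Tfrc, the transferrin receptor, with an SD of 0.36, was 1 of the 35 features called between the groups.

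The most variable transcripts included red cell, histone H2A and glucocorticoid response genes and others that belong to none of these. They were chosen by their SD, so their spread is a description and no finding. The 25 named symbols with the highest SD ran from 1.90 for Ins2 to 0.47 for Rrad. The largest was that of a hormone of another organ. Ins2, which encodes insulin and is made by β cells of the pancreas, had a log2 signal of 6.62, 6.49 and 6.49 in the mild littermates, near the median of all features, and of 11.38, 7.34 and 8.18 in severe littermates 1, 2 and 3. Severe littermate 1 stood 29.7-fold above the lowest heart. In the same heart Gcg, glucagon, was at 7.24 against 6.29 to 6.58 in the others, and Sst, somatostatin, at 6.78 against 6.30 to 6.53. Of 14 measured islet markers 2 were above the median signal on average, and the defining β cell factors Pdx1 and Nkx6-1 lay between 6.34 and 6.64. The summed linear signal of the list was 3945 in severe littermate 1 and 1244 to 1430 in the other 5 hearts. Ins2 itself carries most of that excess, so the sum adds little to its own value. The summed signal of 20 markers of exocrine pancreas was 1885 in severe littermate 1 and 1854 to 1959 in the others. Without severe littermate 1 the SD of Ins2 was 0.74. The part of islet tissue in these values was not tested, and in whole tissue RNA more cells of a type and more RNA per cell cannot be told apart.

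**Figure D2:**
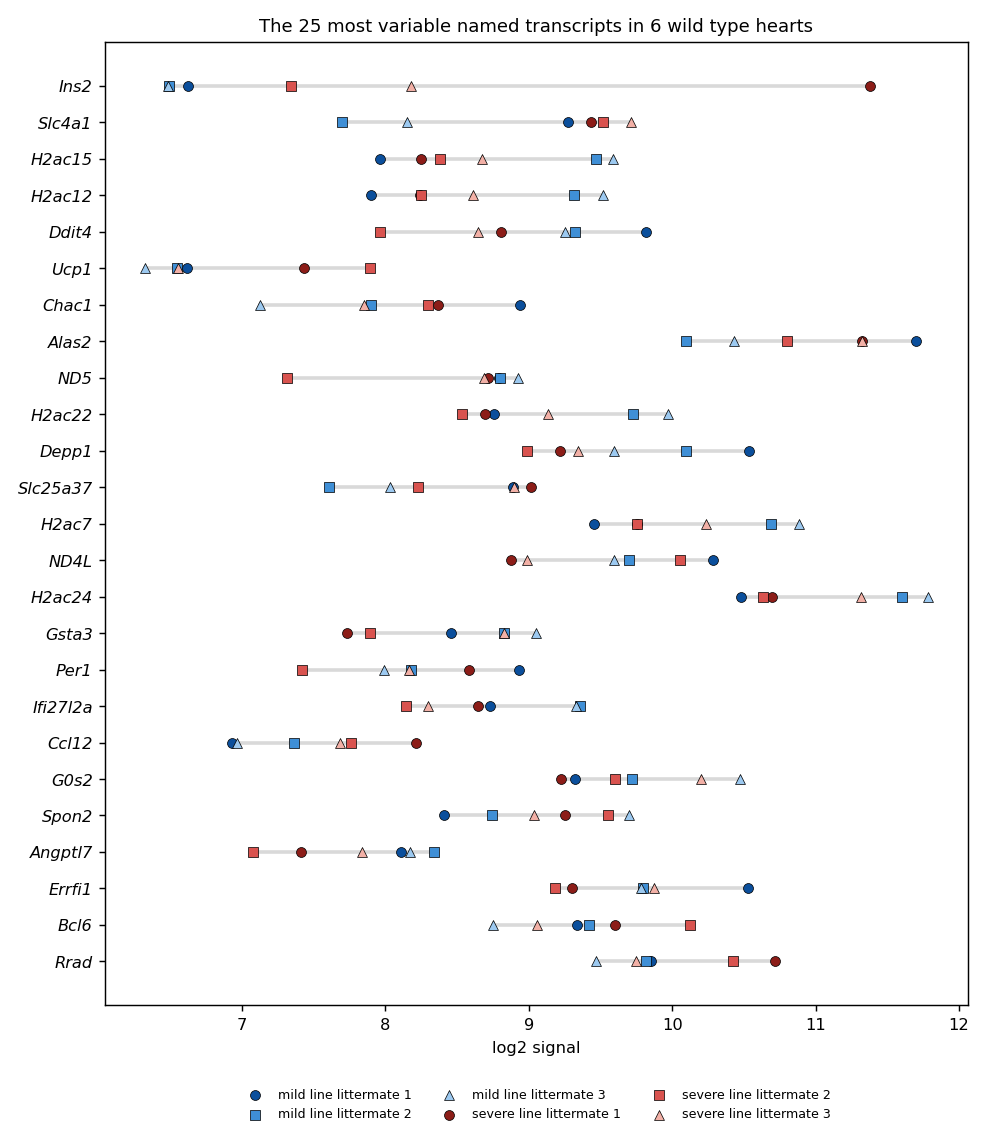
Log2 signal of the 25 most variable named transcripts (rows, largest SD first) in the 6 wild type hearts, 1 symbol per heart and a grey line from the lowest to the highest. Severe littermate 1 stands alone for Ins2 at 11.38, mild littermates 2 and 3 are lowest for Slc4a1 and highest for the H2ac genes, and severe littermate 2 stands alone for ND5 at 7.32.

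Red cell genes split the mild littermates. Slc4a1, the anion exchanger band 3 of the red cell membrane, was at 9.27 in mild littermate 1 and at 7.70 and 8.15 in mild littermates 2 and 3, with 9.43, 9.51 and 9.71 in the severe littermates. Alas2, whose promoter is printed above, was at 11.70, 10.10 and 10.43 against 11.32, 10.80 and 11.33. Slc25a37, mitoferrin, which brings iron into mitochondria for heme, was at 8.89, 7.61 and 8.03 against 9.02, 8.23 and 8.90. Mild littermate 2 was lowest for all 3 genes and mild littermate 3 next lowest. For Slc4a1 the severe littermates were all above the mild littermates (difference -1.18, SE 0.37, limma, adjusted p = 0.279).

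The globins did not share the size of this pattern. Hba-a1 ran from 14.70 to 14.95 and Hbb-b2 from 10.22 to 10.99, with mild littermate 1 highest for both. On the arrays Hba-a1 ranked 5 to 14 among all features. The scale left it little room to rise, so its range is not like those of dimmer genes. Of 14 measured red cell markers 8 were above the median signal and 3 of those had an SD over the 95th percentile. The list's summed signal was 30468 to 38464 in the mild and 31230 to 34701 in the severe littermates. The list's members Klf1 and Rhd were at or near the median of all features. α-globin genes are near-identical copies, so their signals cannot be assigned to 1 of them.

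Histone H2A transcripts were also among the most variable. H2ac15 was at 7.97 in mild littermate 1, 9.47 and 9.59 in mild littermates 2 and 3, and 8.25, 8.38 and 8.68 in the severe littermates. H2ac12 was at 7.90, 9.31 and 9.52 against 8.24, 8.25 and 8.61, and H2ac24 at 10.48, 11.60 and 11.79 against 10.70, 10.63 and 11.32. Mild littermates 2 and 3, which were lowest for the red cell genes, were highest here. Of 14 H2ac features above the median signal 9 had an SD over the 95th percentile, and in 11 of the 14 these 2 hearts were the highest pair, against 7.34% of all features above the median signal. The histone families were looked at after the values had been seen.

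The other core histones did not vary to that degree. The median SD was 0.39 for the 14 H2ac features, 0.17 for 10 H2bc, 0.10 for 8 H3c and 0.14 for 10 H4c features, all above the median signal. None of the H2bc, H3c or H4c features had mild littermates 2 and 3 as its highest pair. H2A and H2B genes of the clusters lie in pairs that share the stretch between them. H2ac15 and H2bc15 are 163 bases apart, and the H2ac15 promoter printed above lies between them. H2bc15 was at 8.98, 8.58 and 8.75 in the mild littermates and 8.51, 8.21 and 8.47 in the severe littermates, with mild littermate 1 the highest and not the lowest heart. H2bc12, 177 bases from H2ac12, had an SD of 0.16 against 0.65. In 5 of 6 such pairs with both genes above the median signal, the H2A gene had the larger SD. The genes of each family have near-identical coding sequences, so several H2ac probes can read 1 transcript and the 14 features are not independent. Canonical histone transcripts mostly lack a poly(A) tail, on which such labeling kits prime, so the values describe the labeled fraction.

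**Figure D3:**
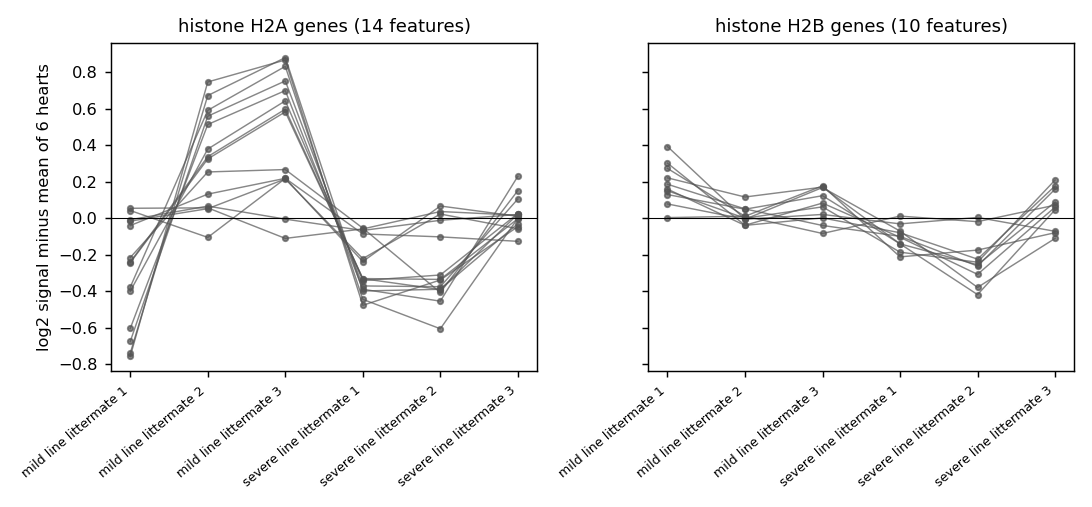
Log2 signal minus the mean of the 6 hearts for histone H2A (left) and H2B (right) features above the median signal, 1 line per feature across the 6 hearts. The variable H2A features lie above 0 in mild littermates 2 and 3, while most H2B features are highest in mild littermate 1 and all stay within a narrower band.

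Genes that respond to glucocorticoids varied as well. Ddit4, an inhibitor of mTORC1 that fasting and glucocorticoids induce, was at 9.82, 9.32 and 9.25 in the mild littermates and at 8.81, 7.96 and 8.65 in the severe littermates. The groups did not overlap, but the difference of 0.99 (SE 0.28) did not pass the test (limma, adjusted p = 0.199). Errfi1, an inhibitor of the EGF receptor, was at 10.53, 9.79 and 9.79 against 9.30, 9.18 and 9.87. Tsc22d3, the leucine zipper GILZ, was at 10.71, 10.44 and 10.30 against 10.10, 9.68 and 10.31. In each of the 3 genes mild littermate 1 was the highest heart and severe littermate 2 the lowest.

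Over the whole list, all 18 of 18 measured genes had a higher mean in the mild littermates, where 48.5% of features above the median signal did. The list was drawn up with earlier results of these data known. Its genes can move together within a heart, so they are not 18 separate observations. The median difference was 0.29, against -0.0036 over features above the median signal, and 12 of the 18 had an SD over the 95th percentile. Groups that did not overlap were found for 3 genes, Ddit4, Pik3r1 and Mt2, a share of the list to be read against 8.24% of the features above the median signal with mild littermates all higher. No member passed the test. Averaged over the list, mild littermate 1 was 0.40 above the mean of the hearts and mild littermates 2 and 3 at 0.075 and -0.044. Severe littermates 1, 2 and 3 were at -0.18, -0.26 and 0.015, so severe littermate 3 stood above mild littermate 3. Sgk1, whose palindrome is printed above, followed at 11.19, 11.00 and 10.78 against 10.34, 10.78 and 10.94.

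The fasting and fuel switch list had no common direction. Of its 18 measured genes 2 had all mild littermates higher and 2 all lower, and the median difference was 0.049. Pdk4, the kinase that shuts pyruvate out of the mitochondrion, was at 10.26, 9.99 and 9.80 in the mild and at 9.26, 9.31 and 9.28 in the severe littermates (difference 0.73, SE 0.20, limma, adjusted p = 0.203). Among 20 immediate early genes above the median signal 10 had an SD over the 95th percentile. Of 25 measured 7 had all mild littermates above all severe littermates and 1 had them all below. These counts are to be read against 7.21% of all features with them all above and 7.88% with them all below. This list too was drawn up with earlier results of these data known. Ccn2, a secreted matrix protein also on the list of matrix genes, was at 11.90, 11.69 and 11.67 against 10.80, 11.06 and 11.23 (difference 0.73, adjusted p = 0.081). Dusp1, a phosphatase of MAP kinases, was at 11.96, 11.96 and 11.63 against 10.87, 11.45 and 11.35 (difference 0.63, adjusted p = 0.141). Klf2, a factor of endothelium under flow, followed at 9.72, 9.52 and 9.77 against 8.84, 8.83 and 9.32. Fos and Egr1, the first genes of the response, had groups that overlapped.

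Clock genes varied from heart to heart, and 0 were called between the groups. Of 15 above the median signal 8 had an SD over the 95th percentile, and 0 of these 15 had groups that did not overlap (8.24% of features above the median signal had all mild littermates higher and 8.34% all lower). Per1, which is on the glucocorticoid list as well, was at 8.93, 8.18 and 7.99 in the mild littermates and at 8.58, 7.42 and 8.17 in the severe littermates. Dbp, an output of the clock that peaks by day, was at 12.32, 11.83 and 11.11 against 12.07, 12.10 and 11.73. Nr1d1, REV-ERBα, was at 7.41, 6.88 and 6.83 against 7.56, 7.63 and 7.07. Ciart, with 3 E-boxes in the stretch printed above, was at 7.67, 7.07 and 6.77 against 7.13, 6.91 and 7.16. In all 4 genes mild littermate 1 was above mild littermates 2 and 3. Clock, which encodes a partner of the activating pair and cycles little, had an SD of 0.13.

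**Figure D4:**
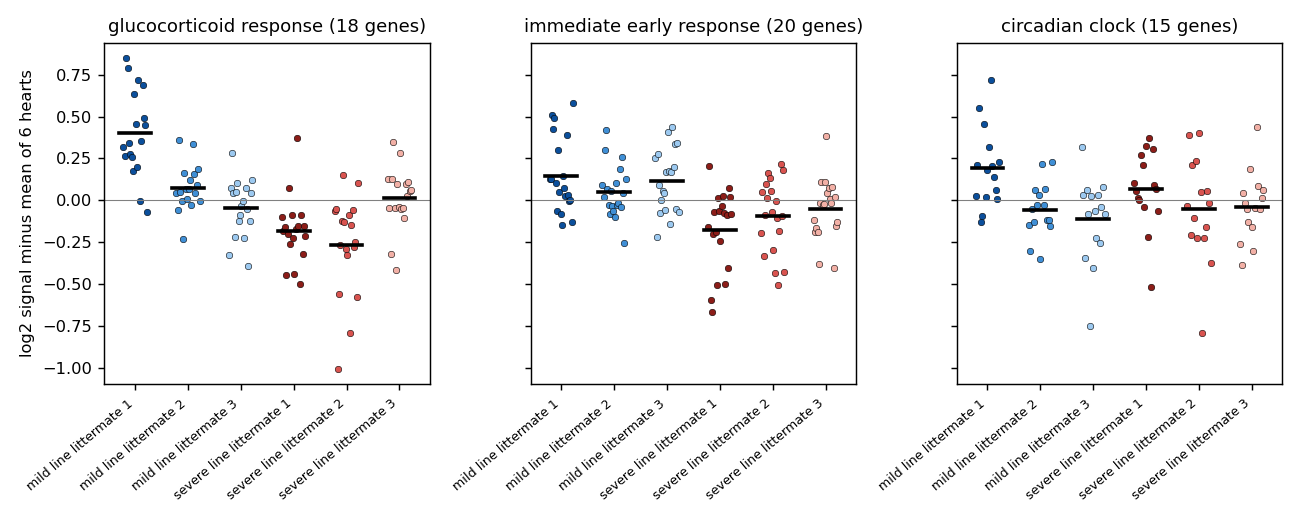
Log2 signal of each gene minus its mean over the 6 hearts (points) and the mean of the list in each heart (bars) for members of 3 lists above the median signal. For glucocorticoid response genes the bar of mild littermate 1 is at 0.40 and those of severe littermates 1 and 2 are at -0.18 and -0.26, while the clock genes scatter in every heart.

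Some fat markers were highest in severe littermate 2. Ucp1, the uncoupling protein of brown fat, was at 6.62, 6.55 and 6.32 in the mild littermates and at 7.43, 7.89 and 6.56 in the severe littermates. Adipoq, adiponectin, was at 6.88, 7.33 and 7.43 against 7.05, 7.82 and 6.98, and Car3 at 7.20, 7.68 and 7.61 against 7.33, 8.21 and 7.50. Severe littermate 2 was the highest heart for all 3. Of 16 measured white fat markers 7 were above the median signal, and the list's summed signal was 16236 in that heart against 12779 to 13996 in the others. Adipoq and Car3 make up a small part of that sum, which brighter members of the list carry. The summed signal of 14 measured brown fat markers did not follow, at 65010 in that heart and 64182 to 77628 in the others. That sum is carried by Cox7a1, Cox8b and Fabp3, which heart muscle makes as well. The part of fat tissue at the heart in these values was not tested.

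Mitochondrially encoded ND5 and ND4L were the most variable of the respiratory chain. ND5 was between 8.68 and 8.93 in 5 hearts and at 7.32 in severe littermate 2, without which its SD was 0.094. ND4L was at 10.28, 9.70 and 9.60 in the mild littermates and at 8.88, 10.06 and 8.99 in the severe littermates, with severe littermate 2 not low. CYTB was highest in severe littermate 2, at 14.83, and 14.47 to 14.78 in the others. Chac1, a glutathione-degrading enzyme of the stress response, spread from 7.12 to 8.94 with the extremes both among mild littermates. Ifi27l2a, an interferon-induced gene, was at 8.73, 9.36 and 9.33 against 8.65, 8.15 and 8.30.

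Between the littermates of the mild and of the severe line, 35 of 30854 features were called at an adjusted p under 0.05 (0.113%; limma over all 12 arrays). Of these 25 were higher (0.081%) and 10 lower (0.0324%) in the mild littermates, with absolute differences from 0.31 to 0.80, so none reached the 2-fold change that the study's rule asks for and 0 features passed that rule. An unadjusted p under 0.05 was found for 3092 features (10%). Of the 35, 22 have 1 symbol, 16 of them higher and 6 lower. With the 6 wild type arrays alone, without the transgenic arrays for the estimate of spread, 0 features were called and the lowest adjusted p among the 35 was 0.068. The count also rested on single hearts. It was 0 without severe littermate 3, 2 without mild littermate 3 and 14 to 26 without each of the others. In the fits with 14 to 26 calls, only 12 to 14 of the 35 stayed called. Without the 3 arrays of the other raw file layout, severe littermate 3 among them, the count was 1, a feature not among the 35. When the raw intensities were scaled to a common median it was 17, 14 of them higher and 3 lower. Of the 35, 14 stayed called there. All 35 had groups that did not overlap, which 7.21% of features did with the mild littermates higher and 7.88% with them lower.

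Among the 35 called features the chemokines Ccl12 and Ccl7 had the largest negative differences. Ccl12, a chemokine that draws monocytes, was at 6.93, 7.36 and 6.97 in the mild littermates and 8.22, 7.76 and 7.69 in the severe littermates. It was lower in the mild littermates by -0.80 on the log2 scale (SE 0.13, limma, adjusted p = 0.026). Its neighbor in function Ccl7 was at 6.84, 6.92 and 7.02 against 7.49, 7.73 and 7.54 (difference -0.66, SE 0.083, adjusted p = 0.015). Of 17 measured macrophage markers 0 were called by their brightest feature. Their median difference was 0.086, and their summed signal was 10652 to 11773 in the mild and 9778 to 10912 in the severe littermates. Lyz2, the lysozyme of macrophages, was itself higher in the mild littermates by 1 of its 2 features (0.47, adjusted p = 0.020), while the brighter feature differed by 0.14 (adjusted p = 0.827).

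Tfrc, which takes up iron-loaded transferrin and is high in red cell precursors, was at 11.35, 11.25 and 11.00 against 11.98, 11.60 and 11.80 (difference -0.59, SE 0.097, limma, adjusted p = 0.034). Its order of the hearts differed from that of Slc4a1, since mild littermate 1 was low for Tfrc and not for Slc4a1. Tubb4b, a β-tubulin, was at 11.02, 11.15 and 11.07 against 11.58, 11.47 and 11.59 (difference -0.46, adjusted p = 0.015). Selenon, a selenoprotein of the endoplasmic reticulum, and B4galt6, which makes lactosylceramide, were lower by -0.43 and -0.35.

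On the higher side, Neat1, the long noncoding RNA that builds paraspeckles, was at 10.70, 10.78 and 10.62 in the mild littermates and at 10.14, 10.19 and 9.78 in the severe littermates (difference 0.66, SE 0.11, limma, adjusted p = 0.040). Tnni3, cardiac troponin I, the inhibitory subunit that replaces the slow skeletal form after birth, was at 11.61, 11.60 and 11.62 against 11.27, 10.83 and 10.99 (difference 0.58, SE 0.090, adjusted p = 0.026). It was the only one of 19 measured sarcomere genes called, and their median difference was 0.036. Tnni1, the form it replaces, was at 6.42, 6.51 and 6.49 against 6.71, 6.68 and 6.61 (difference -0.20, adjusted p = 0.198). The groups did not overlap for either gene, in opposite directions. Of all features 7.21% had the mild littermates all higher and 7.88% all lower, and the Tnni1 signals lay near the median of all features.

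A pair of translation initiation genes was called. Eif4ebp1, which restrains the cap-binding factor until mTORC1 phosphorylates it, was at 10.83, 10.94 and 11.01 against 10.28, 10.40 and 10.45 (difference 0.55, SE 0.078, limma, adjusted p = 0.020). Eif3k, a subunit of initiation factor 3, differed by 0.47 on 1 of its 2 features and by -0.030 on the other. The ribosomal protein and translation factor list had 0 of 27 called, with a median difference of -0.041.

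Proteins of folding and turnover were also among the calls. Hspb1, a small heat shock protein of muscle, was at 10.39, 10.11 and 10.40 against 9.77, 9.90 and 9.81 (difference 0.47, SE 0.083, limma, adjusted p = 0.044), 1 of 25 chaperone genes measured, whose median difference was 0.045. Map1lc3b, the LC3 protein of autophagosomes, differed by 0.54 (adjusted p = 0.044), and Retreg2, of a family of receptors for the removal of endoplasmic reticulum, by 0.40. Emc9, a subunit of the complex that inserts membrane proteins, differed by 0.45. The other named calls were Pramel4 (0.56), the 14-3-3 protein Ywhag (0.53), the antiproliferative Tob2 (0.45), the centromere protein Cenpb (0.41), the mitochondrial protein Rcc1l (0.38), Prune2 (0.38) and the nucleotidase Nt5c (0.33). Tob2 and Prune2 had other features that did not pass.

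The other 13 called features have no symbol here. The largest difference was that of ILMN_2673936, at 11.47, 11.17 and 11.38 in the mild and 10.81, 10.53 and 10.63 in the severe littermates (difference 0.68, SE 0.091, limma, adjusted p = 0.015). A pair of the 13, ILMN_2454649 and ILMN_1240829, were among the brightest of the array, the former at 14.53, 14.63 and 14.45 against 14.92, 14.95 and 15.06.

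The transgenic hearts of the lines were compared as well. They also differ in the level of the dominant negative protein and in disease, which the paper reports as greater in the severe line. Line, litter and any batch cannot be told apart there either, so this is no independent test of a line difference. The transgenic hearts are other animals, but all 12 arrays share 1 estimate of spread in the fit. A feature called with a small spread therefore passes more easily in both comparisons. The share of all features that pass is thus no like background for the 35. Of the 35 features 33 differed between mild and severe transgenic hearts in the direction seen between the wild type littermates, as 58.0% of all features did. In 12 the transgenic difference also passed the test (2.12% of all features did, 1.08% higher and 1.04% lower in the mild line), and none passed in the opposite direction. Emc9 differed by 0.45 between littermates and by 0.72 between transgenic hearts, Map1lc3b by 0.54 and 0.64, Tnni3 by 0.58 and 0.52, Lyz2 by 0.47 and 0.46, and Nt5c by 0.33 and 0.33. The unnamed ILMN_1256343 differed by -0.54 and -0.69. For Ccl12 the values were -0.80 and 0.031, and for Tfrc -0.59 and -0.076. The interaction of line and genotype was called for none of the 35 (lowest adjusted p = 0.086, of Ccl12) and for 0.275% of all features, so a difference between the wild type and the transgenic comparison was not shown for any of them.

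**Figure D5:**
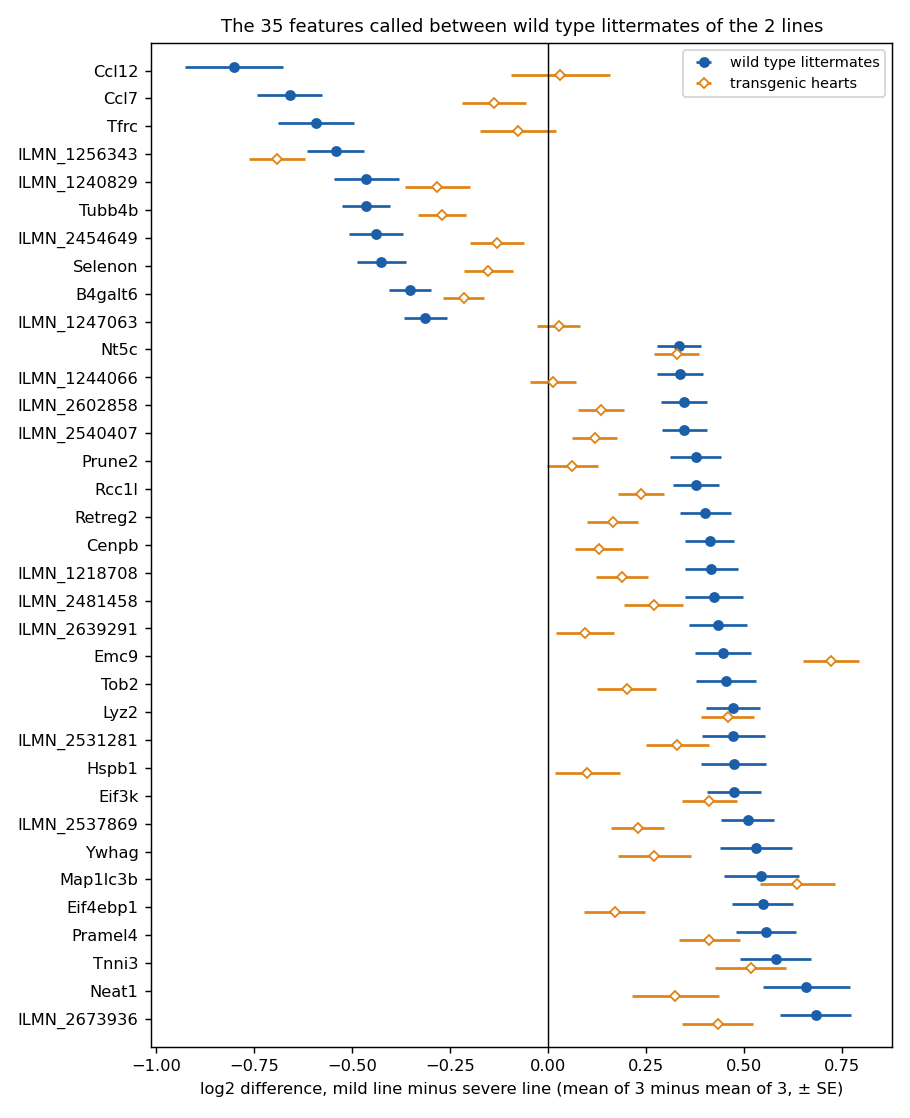
Log2 difference between the mild and the severe line (mean of 3 hearts minus mean of 3, ± SE from limma) for the 35 called features, in wild type littermates (filled circles) and in transgenic hearts (open diamonds). Both symbols lie on the same side of 0 for 33 features, with Ccl12 and ILMN_1247063 on the other side in the transgenic hearts.

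Other genes had groups that did not overlap and did not pass the test. Lrrc10, a leucine-rich protein of heart muscle, was at 9.91, 9.59 and 9.52 in the mild and at 9.01, 8.87 and 9.05 in the severe littermates (difference 0.69, SE 0.13, limma, adjusted p = 0.055). Ndufb2, a subunit of complex I, was at 9.44, 9.19 and 9.66 against 8.79, 8.96 and 8.84 (difference 0.57, adjusted p = 0.076). Among 48 measured oxidative phosphorylation genes 0 were called and 32 were higher in the mild littermates, with a median difference of 0.040. Igf2, the fetal growth factor, was at 12.19, 12.08 and 11.96 against 12.34, 12.70 and 12.53 (difference -0.45, adjusted p = 0.089). Acta2, α-smooth muscle actin, which is also made in the fetal heart, was at 12.04, 12.10 and 11.97 against 12.44, 12.47 and 12.48 (difference -0.43, adjusted p = 0.102). Slc8a1, the sodium-calcium exchanger, was at 9.22, 9.15 and 9.01 against 9.54, 9.81 and 9.36 (difference -0.44, adjusted p = 0.102). Ankrd1, a stretch-responsive protein of the sarcomere, was at 12.63, 12.68 and 12.63 against 12.37, 12.32 and 11.75 (difference 0.50, adjusted p = 0.292).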

How the data were processed

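RNA of whole hearts was measured on 12 arrays, 6 of them wild type. The raw files that the authors deposited give each probe ID a bead summary as a linear intensity. The signals used here are the authors' log2 values, which they had background corrected and quantile normalized per the study's methods. The submitters' notes name GenomeStudio and limma, with no version. Within an array both kinds of file ranked the probes alike. No detection p-values were used.

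The platform annotation gives 1 gene symbol to 34885 of 45281 probe IDs, several to 18 and none to 10378. Identical values across the series were treated as 1 feature, since they cannot be assigned to 1 probe, and 8966 of 30854 features hold over 1 ID. Of 19013 symbols 2685 have over 1 feature, and a listed gene was taken by its brightest one. From 3 raw files 6 lines with no ID were dropped.

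R 4.3.3 with limma 3.58.1 and Python 3.11.15 were used. The means of the 4 groups were fitted over all 12 arrays with empirical Bayes variances. The mild minus severe difference of the wild type littermates was tested with Benjamini-Hochberg adjustment over all features, at 0.05. The study's own rule was counted too. It asks for a 2-fold change with either an adjusted p under 0.05 or an unadjusted p under 0.001. Spread was the SD over 6 hearts, for features above the median of the mean signals. The fit was tested on simulated data. The number of arrays limits the precision.

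Named were the 25 brightest and the 25 most variable symbols, up to 15 calls each way, the 3 members of largest SD and up to 4 calls in each of 20 pathway and 22 marker lists, common reference genes, the 10 symbols of lowest SD in the brightest 10% of features and the genes of the sex check. The histone families and other list members given with values were chosen after their values were seen. The members and lists were chosen with earlier results of these data known. Alternatives were 3 normalizations of the raw intensities (normexp with offset 50), other fits and filters, and leaving out each wild type array. Promoter windows are from RefSeq and run from 250 bases before to 50 after a start.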

Additional observations from a re-analysis of the deposited data

Results flagged for a closer look

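In 2 of 146 features looked at the line difference of the wild type hearts differed from that of the transgenic hearts by the interaction of line and genotype (limma), as it did in 85 of all 30854 features (0.275%). The smooth muscle actin Acta2 differed by -0.43 between the littermates and by -1.11 between the transgenic hearts, a gap of 0.68 (adjusted p = 0.047). The calcium pump Atp2a2 differed by 0.015 and -0.52, a gap of 0.53 (adjusted p = 0.014).

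In 8 of the same 146 features the gap between 1 heart and its nearest neighbor, as a share of the whole range, was above Dixon's 95% critical value. Chance gives about 1 in 20, so 8 is near the number chance gives, and some of the 146 were named for their SD over these hearts. The values follow as a description. In severe littermate 1 the islet hormones were high, Ins2 at 11.38 against 6.49 to 8.18 (share 0.65) and Gcg at 7.24 against 6.29 to 6.58 (0.69). Severe littermate 2 was low for the mitochondrial ND5, at 7.32 against 8.68 to 8.93 (0.85), for the ATP synthase subunit Atp5g3, at 14.87 against 14.98 to 15.02 (0.72), and for the endothelial Ly6c1, at 10.51 against 11.05 to 11.35 (0.64). It was high for the atrial light chain Myl4, at 14.59 against 14.24 to 14.36 (0.65). Mild littermate 1 was high for the β-globin Hbb-b2, at 10.99 against 10.22 to 10.50 (0.63), and for the endothelial Rgcc, at 10.67 against 9.87 to 10.07 (0.75).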

How the results depend on the processing

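The number of features called between the littermates, 35, depended on the setting. It was 17 with median scaling of the raw intensities, 15 with trend and robust variances, 8 with the replicate number as a block and 0 with the 6 wild type arrays alone (limma; 2955 features had an unadjusted p under 0.05). Of settings chosen after seeing the data it was 0 with the block in the 6 wild type arrays and 1 without the 3 arrays of the other raw file layout. Leaving out 1 heart gave 0 (severe littermate 3) to 26 (severe littermate 1), and 0 to 14 of the 35 stayed called. In the 5 other settings it was 27 to 39, with 25 to 34 of the 35 among them. With median scaling 14 of the 35 stayed called, as with trend and robust variances. Of the 17 settings, 16 tested all 35 features and 1 tested 34, and each kept its direction in all that tested it. For the fits, filters and left out hearts that was fixed in advance, because the groups of all 35 do not overlap. Only the other normalizations could have reversed a direction. The pairing by number was checked by the correlation of deviations from the group means, which was 0.080, -0.078 and 0.036 for same-numbered wild type hearts, and 0.11, -0.027 and -0.077 for wild type against transgenic hearts of the mild line. In 0 of 6 pairs of groups were all 3 over 0.1, so the hearts were taken to share only a number. Past the 2-fold rule were 0 features, against 2 with normexp and quantile normalization, 3 with median scaling, 1 with the 6 wild type arrays with or without the block, 1 with array weights, 1 without the 3 arrays and 0 to 3 without 1 heart. The 69 features of 2-fold range became 206 with median scaling and 44 to 66 without 1 heart. Departures of a single heart, 40 in all, became 67 with median scaling and 598 at a limit of 0.5 (chosen after seeing the data). The median SD stayed between 0.086 and 0.14. The cause of these changes was not tested.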

Other observations

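Several gene groups of vessels, matrix and immunity varied between hearts without a call between the littermates (limma). Of 15 antigen presentation genes above the median signal 4 had an SD over the 95th percentile, and 16 of 21 measured were higher in the mild littermates, with a median difference of 0.095. H2-Ab1, a class II chain, was at 7.42, 7.75 and 7.84 in the mild and at 7.43, 7.32 and 7.22 in the severe littermates (difference 0.35, adjusted p = 0.176). Interferon-induced GTPases ran in opposite directions. Irgm1 was at 9.86, 10.01 and 9.99 against 9.59, 9.52 and 9.48 (difference 0.43, adjusted p = 0.102), while Igtp was at 7.52, 7.90 and 7.83 against 8.14, 8.04 and 8.06 (difference -0.33, adjusted p = 0.215). S100a8, a calprotectin subunit of neutrophils, was at 7.26, 7.31 and 7.52 against 7.61, 7.87 and 7.81 (difference -0.40, adjusted p = 0.226).

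Of 24 collagen and matrix genes above the median signal 8 had an SD over the 95th percentile, as did 6 of 17 endothelial and 4 of 12 smooth muscle and pericyte markers. Col4a1, a basement membrane collagen, was at 12.08, 11.98 and 11.85 against 12.38, 12.53 and 11.85. Rgs5, a pericyte marker, was at 9.99, 10.68 and 10.81 against 10.44, 10.73 and 10.32, so its lowest and its highest heart were both mild littermates. Nppb, the brain natriuretic peptide that stretch induces, was highest in mild littermate 3 at 13.21 and ran from 12.24 to 12.63 in the others. Over all lists, 2 members were called higher in the mild littermates (Tnni3 and Hspb1) and 1 lower (Tfrc), of 756 measured (0.081% and 0.0324% of all features were), with genes on several lists counted in each.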
